A study of Mus musculus with 8 samples.

Results

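The genes described here encode the machinery of the skeletal muscle triad, where a transverse tubule (T-tubule), an inward fold of the surface membrane, meets the sarcoplasmic reticulum, the calcium store of the fiber. They were 10 genes chosen by name: Cacna1s, Cacnb1, Cacng1, Cacna2d1, Ryr1, Stac3, Jph1, Jph2, Trdn and Bin1. All array probes annotated with 1 of these symbols were taken, which gave 16 of 25697 probes and covered 9 of the 10 genes. No probe carried the symbol Cacna1s, so the pore of the voltage-gated calcium channel was not analysed here.

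In excitation-contraction coupling, an action potential runs down the T-tubule and moves the voltage sensor of the L-type calcium channel. In skeletal muscle this channel is coupled to the ryanodine receptor, which opens and lets calcium leave the sarcoplasmic reticulum. Junctophilins hold both membranes together, and an adaptor protein, Stac3, is needed for the channel to work at the triad.

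RNA came from a hindlimb muscle, the tibialis anterior, of male C57BL/6 mice aged 8 weeks. There were 4 p21 muscles, transfected with a plasmid for p21, the cyclin-dependent kinase inhibitor encoded by Cdkn1a, and 4 control muscles, transfected with a control plasmid, all collected after 7 days. The labels describe muscles of both legs but do not say which samples share a mouse, nor which share of the fibers took up plasmid. The p-values therefore rest on the spread among these samples, in part perhaps technical, and the number of arrays limits the precision. In whole muscle, fewer cells of a type and less RNA per cell cannot be told apart.

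Values are log2 intensities as deposited, and each change is the p21 mean less the control mean, in log2 units ± SE. All arrays shared a range of 8.13 to 15.27 and a median of 8.39. A fall or rise below means an adjusted p under 0.05 from limma, which fits all probes together and adjusts by the Benjamini-Hochberg method over the whole table. The exact two-sided permutation test over the 70 regroupings of 4 against 4 arrays cannot go below p = 0.0286. The brightest Cdkn1a probe read 11.44 ± 0.21 in p21 muscles and 10.01 ± 0.19 in control muscles (SD, n = 4 each), in the direction of the labels. The 18 measured genes of muscle fiber structure averaged 14.37 to 14.53 in p21 muscles and 14.57 to 14.60 in control muscles, near the top of the range, as muscle tissue would give.

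Triad transcripts were lower in p21 muscles in 4 of the 9 genes measured, each through at least 1 probe: the calcium channel subunit Cacnb1, the release channel Ryr1, the adaptor Stac3 and the junctophilin Jph1. Counted that way, 5.33% of all named genes were lower and 4.52% were higher. The members were chosen with earlier results of these data known. The shares and medians set beside the whole array, here and below, therefore describe the members and are not a test. The falls were modest, between −0.36 and −0.49 on the log2 scale. Cacng1, another subunit of the same channel, had its 4 highest readings in the 4 p21 muscles, although its adjusted p was above 0.05. Bin1 showed no change beyond the spread between replicates. Trdn, still counted among the 9, had its only probe near the array floor, where a change was not detectable. When each gene is read by its brightest probe alone, 3 of 9 genes fell (33.3%) and 0 rose, since the brightest Ryr1 probe missed the threshold. Across the array, 4.79% of the brightest probes of named genes were called lower and 4.24% were called higher. With the replicate number as a block, 6 of 9 genes were lower, with Ryr1, Cacna2d1 and Jph2 added, and 1, Cacng1, was higher, against 6.96% lower and 7.11% higher across the array. By probe, 5 of 16 were called lower (31.2%) and 0 higher, against 4.35% lower and 3.68% higher of all probes. The groups did not overlap in 9 of the 16 probes, against 16.7% of all probes and 39.6% of probes brighter than 70% of the array. The member probes are bright, and 13 of the 16 were brighter than 70% of probes, a class in which 12.5% of all probes were called lower and 9.35% higher. The median change was −0.30 over the brightest probes of the 9 genes, against −0.004 over the brightest probes of all named genes. Over all 16 member probes it was −0.20, against −0.004 over all probes of the array. In the bright class it was −0.30 over the 13 member probes and −0.03 over all probes. No member was removed by a filter on low values, since none was used.

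**Figure D1:**
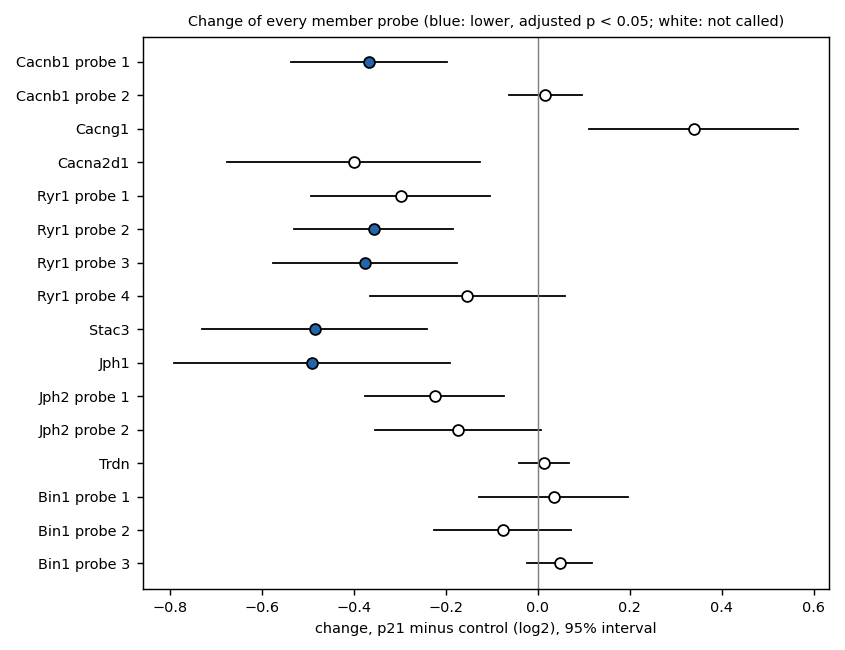
Change of each of the 16 member probes, p21 mean less control mean in log2 units, with its 95% interval. Blue points are called lower by limma and white points are not called; probes of a gene are numbered from the brightest. The called probes lie between −0.36 and −0.49, and Cacng1 is the point at 0.34 on the right.

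Among the subunits of the L-type channel, Cacnb1 encodes the intracellular beta subunit, which the pore needs to reach the triad. Its brightest probe read 10.12, 9.94, 10.16 and 9.97 in p21 replicates 1 to 4, against 10.48, 10.36, 10.44 and 10.37 in control replicates 1 to 4. Every p21 muscle lay below every control muscle. The change was −0.37 ± 0.08, or 22.4% lower (limma adjusted p = 0.0211; exact permutation p = 0.0286). The other Cacnb1 probe, annotated to another transcript accession, read 8.40 ± 0.05 in p21 muscles and 8.39 ± 0.04 in control muscles (SD, n = 4 each), at the level of the median probe. With the mean over both probes, the change of Cacnb1 was −0.17 with a limma adjusted p of 0.0556.

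Cacng1 encodes the gamma subunit, a membrane protein of skeletal muscle known from mouse knockouts to restrain the calcium current. It read 11.59, 11.77, 11.28 and 11.50 in p21 muscles, against 11.15, 11.21, 11.17 and 11.25 in control muscles. The groups did not overlap, but p21 replicate 3 lay only just above the highest control, and the p21 muscles varied more (SD 0.20 against 0.05 in control muscles). The change was 0.34 ± 0.10 with a 95% interval of 0.11 to 0.57 (limma adjusted p = 0.0682; exact permutation p = 0.0286). With the replicate number as a block, the adjusted p was 0.0437, and without p21 replicate 3 it was 0.0272. Leaving out any other single array gave a limma adjusted p of 0.0886 to 0.166, and array weights gave 0.0758.

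Cacna2d1 encodes the extracellular alpha2delta subunit, which also binds gabapentin. Its single probe read 11.06, 10.42, 10.85 and 10.85 in p21 muscles, against 11.11, 11.09, 11.28 and 11.29 in control muscles. All p21 values were lower, with p21 replicate 1 close to the controls and p21 replicate 2 far below them. The change of −0.40 ± 0.13 had a limma adjusted p of 0.0746, which became 0.0321 with the replicate block and 0.0371 without p21 replicate 1. Leaving out any other single array gave a limma adjusted p of 0.0784 to 0.163. The interval of Cacng1 lay above 0, while those of Cacnb1 (−0.54 to −0.20) and Cacna2d1 (−0.68 to −0.13) lay below it. These intervals are for single probes and are not adjusted over all probes. Cacng1 and Cacna2d1 missed the adjusted threshold in the main fit.

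Ryr1, the calcium release channel of the sarcoplasmic reticulum, was read by 4 probes, all annotated to the same transcript. Its brightest probe gave 14.25, 13.81, 14.16 and 14.10 in p21 muscles, against 14.51, 14.32, 14.38 and 14.31 in control muscles. The change there was −0.30 ± 0.09 (limma adjusted p = 0.0632, and 0.0215 with the replicate block). The next probe gave 14.02, 13.75, 14.12 and 13.88 in p21 muscles, against 14.36, 14.30, 14.31 and 14.22 in control muscles. It fell by 0.36 ± 0.08 (limma adjusted p = 0.0242).

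The next dimmer Ryr1 probe gave 13.11, 12.75, 13.04 and 12.83 in p21 muscles, against 13.42, 13.29, 13.22 and 13.30 in control muscles, and fell by 0.38 ± 0.09 (limma adjusted p = 0.0317). In these 3 probes the groups did not overlap, and p21 replicate 2 was the lowest muscle each time. Neither of the passing probes stayed past the threshold when control replicate 1, 2 or 3 or p21 replicate 4 was left out. The dimmest Ryr1 probe averaged 10.09 ± 0.14 in p21 muscles and 10.24 ± 0.15 in control muscles (SD, n = 4 each), and its groups overlapped (limma adjusted p = 0.404). Thus 2 of 4 Ryr1 probes passed, and all 4 had negative changes.

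The 250 bases before the start of Ryr1 and before each of the 2 starts listed for Cacnb1 are shown because these are the genes with a called fall for which a promoter sequence was at hand. They are RefSeq sequences of build GRCm38.p6, given 5′ to 3′ on the strand of the gene, and 5 of the 10 genes had an entry. The starts are those listed with the promoter windows and differ from the ends of the gene records. Both Cacnb1 windows lie inside the gene record, which ends at 98023034. The Ryr1 window overlaps its gene record, which ends at 29125179. Capitals mark matches to an E-box (CANNTG, the element of myogenic factors), a CCAAT box or a GC box (GGGCGG), sought on both strands, where GC boxes may share bases.
Ryr1, chr7:29125152-29125401, minus strand: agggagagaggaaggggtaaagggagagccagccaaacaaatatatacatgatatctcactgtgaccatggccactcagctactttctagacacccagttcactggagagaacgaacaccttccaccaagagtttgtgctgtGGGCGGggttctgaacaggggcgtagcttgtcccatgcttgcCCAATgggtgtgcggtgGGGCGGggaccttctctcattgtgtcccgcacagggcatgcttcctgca
Cacnb1 outer start, chr11:98022628-98022877, minus strand: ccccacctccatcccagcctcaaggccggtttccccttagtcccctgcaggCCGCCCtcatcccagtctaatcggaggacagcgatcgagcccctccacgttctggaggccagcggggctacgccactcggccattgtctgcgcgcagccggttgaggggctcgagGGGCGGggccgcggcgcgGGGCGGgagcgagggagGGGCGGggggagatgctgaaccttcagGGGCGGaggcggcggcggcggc
Cacnb1 inner start, chr11:98018373-98018622, minus strand: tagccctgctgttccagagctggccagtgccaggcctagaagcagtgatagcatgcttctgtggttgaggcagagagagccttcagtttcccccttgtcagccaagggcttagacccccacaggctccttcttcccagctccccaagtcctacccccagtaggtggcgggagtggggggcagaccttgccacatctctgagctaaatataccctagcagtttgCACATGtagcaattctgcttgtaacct
The Ryr1 window held 2 GC boxes, 1 CCAAT box and 0 E-boxes. The outer Cacnb1 window held 5 GC boxes, and the inner one held 1 E-box, whose first base lies 27 bases before the start. Of the 32851 promoter windows of this length in the table, 66.2% held an E-box, 33.8% a CCAAT box and 32.7% a GC box. The MEF2 element and the CHR element of cell cycle genes (TTTGAA, both strands) had 0 matches in these 3 windows, against 0.508% and 16% of all windows. These matches describe the letters only.

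**Figure D2:**
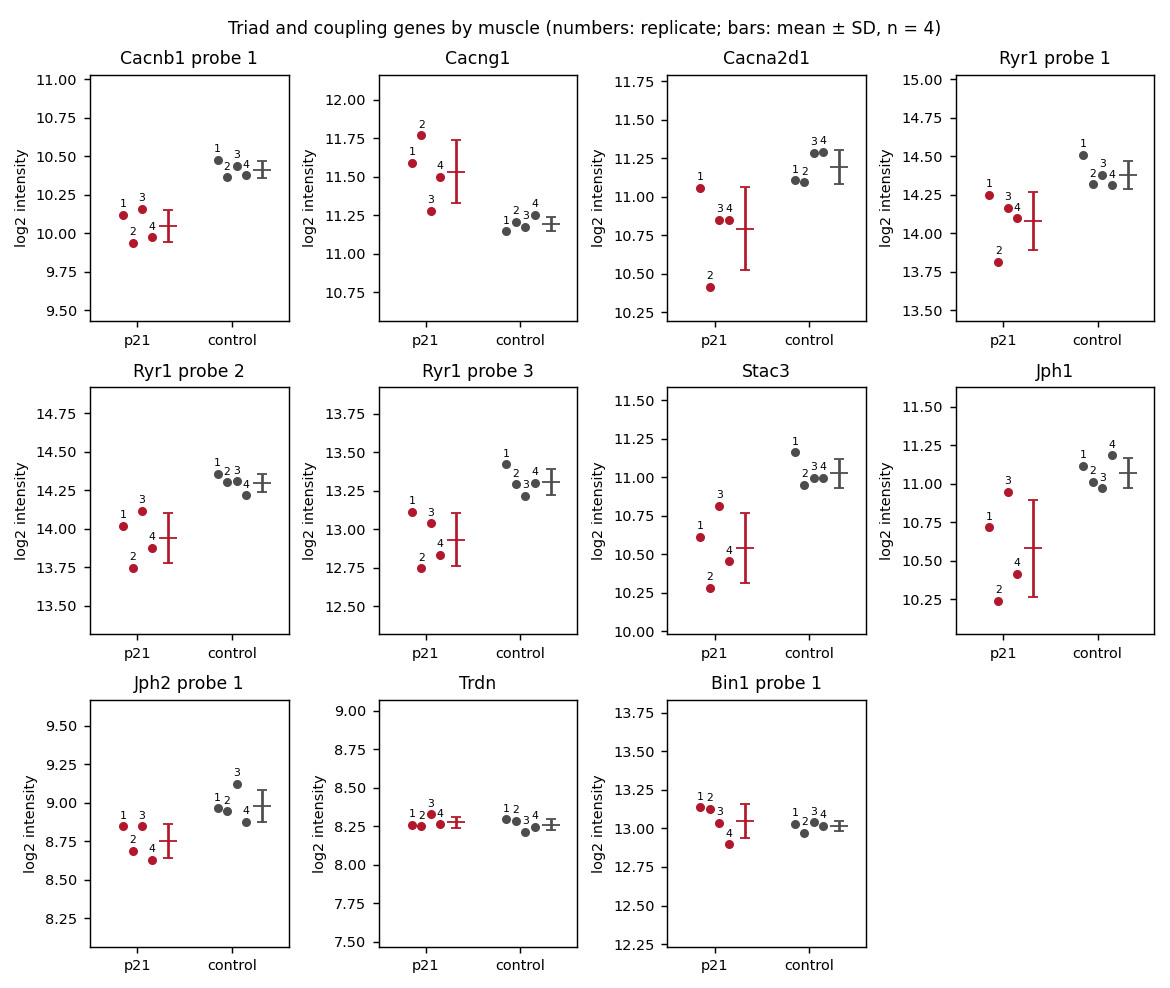
Log2 intensity in each muscle for the brightest probe of each member and for the 2 called Ryr1 probes. Red points are p21 muscles and grey points control muscles, numbered by replicate, with mean ± SD (n = 4) beside them; each panel spans 1.6 log2 units. The groups lie apart in every panel but those of Trdn and Bin1.

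Stac3, the adaptor that links the voltage sensor to calcium release, is required for contraction in mouse muscle. It read 10.61, 10.28, 10.81 and 10.45 in p21 muscles, against 11.16, 10.95, 11.00 and 11.00 in control muscles. The highest p21 muscle stayed below the lowest control. Stac3 fell by 0.49 ± 0.11, or 28.6% lower (limma adjusted p = 0.0272; exact permutation p = 0.0286).

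The junctophilins Jph1 and Jph2 span the gap between the T-tubule and the sarcoplasmic reticulum, and Jph1 is the main form of skeletal muscle. Jph1 read 10.72, 10.24, 10.95 and 10.42 in p21 muscles, against 11.12, 11.02, 10.97 and 11.19 in control muscles. The spread was wide in p21 muscles (SD 0.31, against 0.10 in control muscles), and p21 replicate 3 came close to the lowest control. Jph1 fell by 0.49 ± 0.14, or 28.9% lower, with a limma adjusted p of 0.0496 at the edge of the threshold. Its adjusted p was above 0.05 when control replicate 1, 2, 3 or 4 or p21 replicate 1, 2 or 4 was left out (up to 0.150), with array weights, with the mean of each gene's probes and with eBayes without the trend.

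Jph2, also the junctophilin of the heart, had probes of low intensity. Its brighter probe read 8.85, 8.69, 8.85 and 8.63 in p21 muscles, against 8.96, 8.94, 9.12 and 8.88 in control muscles. The groups lay apart, but by little. The change was −0.22 ± 0.07 (limma adjusted p = 0.0704, and 0.0183 with the replicate block), and with the array floor subtracted it was −0.53. The other Jph2 probe had a change of −0.17 ± 0.08 with overlapping groups.

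Trdn encodes triadin, which ties the calcium-binding protein calsequestrin to the release channel. Its only probe read 8.25 to 8.33 in p21 muscles and 8.22 to 8.29 in control muscles, within 0.14 of the array floor on average. Only 22.5% of probes were as dim or dimmer, so a change of Trdn was not detectable with this probe.

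Bin1, or amphiphysin 2, bends membrane and helps to form T-tubules. Its brightest probe read 13.14, 13.13, 13.04 and 12.90 in p21 muscles, against 13.03, 12.97, 13.04 and 13.02 in control muscles. The p21 values surrounded the control values. The change was 0.03 ± 0.07 (95% interval −0.13 to 0.20), so a fall as large as those of Stac3 or Jph1 lies outside this interval. The other Bin1 probes read below 9 on average and changed by −0.08 ± 0.07 and 0.05 ± 0.03, with limma adjusted p = 0.584 and 0.436.

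The muscles within the p21 group were not alike. All 5 called probes were lowest in p21 replicate 2 among p21 muscles, and 10 of the 16 member probes were lowest there. The brightest probes of fiber genes such as Mb, Myh4, Actn3, Ldb3 and Tcap were also lowest there, while those of Ttn and Myh1 were not. The share of all probes lowest in that muscle was not counted, so this is not shown to be particular to the members. Averaged over the 5 called probes, the level was 11.72, 11.39, 11.82 and 11.51 in p21 replicates 1 to 4, against 12.11, 11.98, 11.99 and 12.02 in control replicates 1 to 4. Replicates 2 and 4 were thus the lower p21 muscles. The same replicates had the highest readings of the brightest Cdkn1a probe, at 11.72 and 11.50, where p21 replicates 1 and 3 had 11.31 and 11.25. They also had the highest averages over 15 macrophage markers, at 11.26 and 10.96, where p21 replicates 1 and 3 had 10.72 and 10.67. Control replicates 1 to 4 read 9.83, 9.92, 10.27 and 10.02 for Cdkn1a. Their macrophage averages were 9.73, 9.97, 10.19 and 10.28. Among the controls, replicate 2 rather than the one highest in either measure had the lowest average over the called probes. A link between these levels was not tested.

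**Figure D3:**
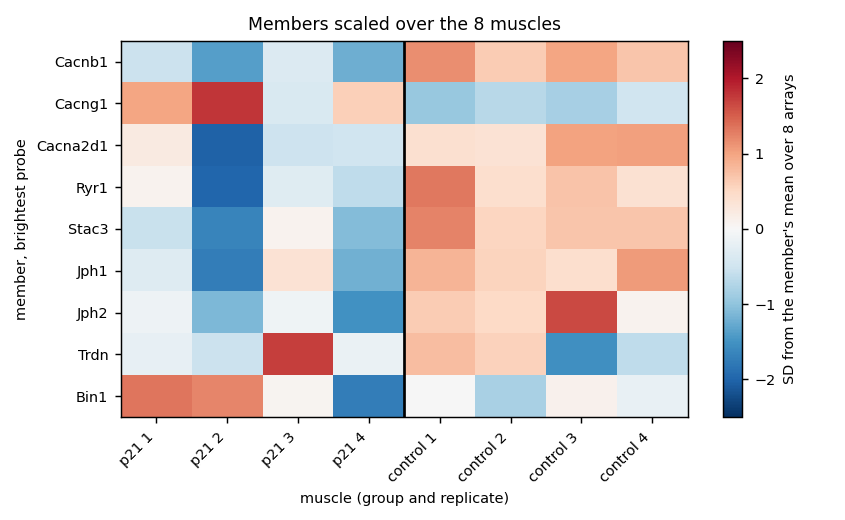
Each member's brightest probe, scaled over the 8 muscles to SD units around its own mean, with p21 muscles left of the line and control muscles right of it. Blue is low and red is high; p21 replicates 2 and 4 are the bluest columns, and Cacng1 runs the other way from the rows around it.

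The calls depended on single arrays. Read by brightest probe, 0 of the 9 genes fell without control replicate 1, 2 or 3 or without p21 replicate 4, and 1 fell without control replicate 4. The whole table behaved alike, with 2064 probes called from all arrays and 379, 391, 1032, 1291 and 159 called without control replicates 1, 2, 3 and 4 and p21 replicate 4. The changes themselves moved less, with a median over the 9 genes of −0.35 to −0.21 when any 1 array was left out. With the replicate block, 3186 probes were called in the whole table.

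**Figure D4:**
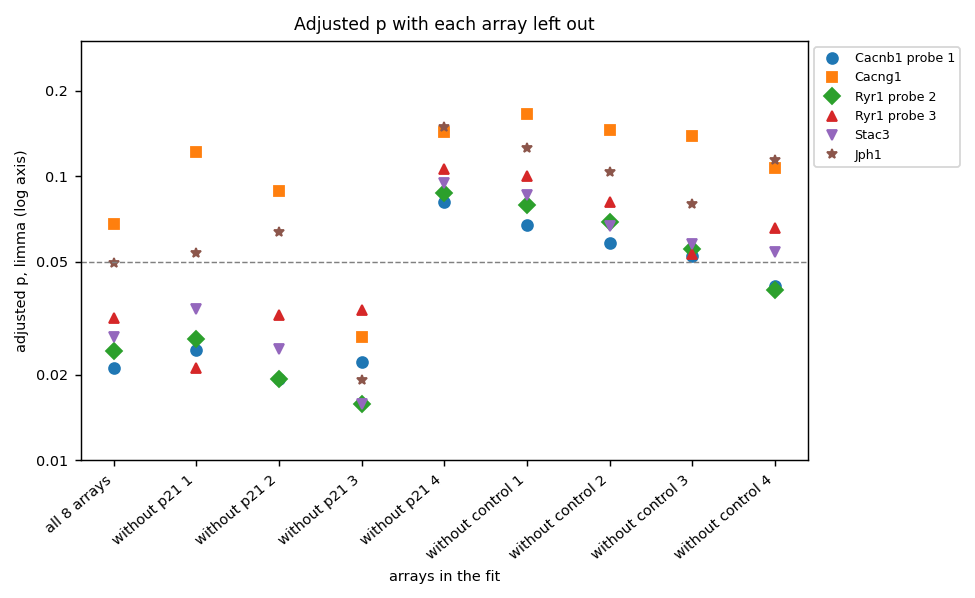
Adjusted p (limma, log axis) of the 5 called probes and of Cacng1, with all 8 arrays and with each array left out; the dashed line is 0.05. Without p21 replicate 4 or control replicate 1, 2 or 3 all points lie above the line, and without p21 replicate 3 all lie below it.

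Other genes of the triad and of calcium storage and release moved both ways. Of 20 such genes listed, 15 were measured. By brightest probe, 6 fell (40%) and 2 rose (13.3%), with a median of −0.26. Across the array, 4.79% of the brightest probes of named genes were called lower and 4.24% higher. In the class brighter than 70% of probes, 12.5% were lower and 9.35% higher, so the share of rises was near that of the class. These lists were drawn up with earlier results of these data known. Casq1, the calsequestrin of fast fibers, read 13.15, 13.03, 13.14 and 12.96 in p21 muscles, against 13.43, 13.52, 13.35 and 13.58 in control muscles, a change of −0.40 ± 0.08 (limma adjusted p = 0.0164, lost without control replicate 2 or p21 replicate 4). Casq2, the calsequestrin of slow fibers and heart, read 10.05, 10.61, 9.79 and 10.11 in p21 muscles, against 9.15, 9.28, 9.23 and 9.38 in control muscles. Casq2 rose by 0.88 ± 0.14, or 1.84-fold (limma adjusted p = 0.00975), and kept adjusted p under 0.05 with each array left out. The forms of calsequestrin thus moved in opposite directions, each with no overlap between the groups.

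The TRIC potassium channels of the sarcoplasmic reticulum showed the same kind of split. Tmem38a, the form abundant in muscle, read 13.26, 12.78, 13.04 and 12.98 in p21 muscles, against 13.54, 13.54, 13.34 and 13.43 in control muscles, and fell by 0.44 ± 0.10 (limma adjusted p = 0.0247). Tmem38b, found in most tissues, read 12.23, 12.15, 11.94 and 11.98 in p21 muscles, against 11.54, 11.50, 11.73 and 11.60 in control muscles. It rose by 0.48 ± 0.09 in its brighter probe (limma adjusted p = 0.0166), and its other probe, at 0.24 ± 0.08, missed the threshold. Neither call held when control replicate 1, control replicate 2 or p21 replicate 4 was left out.

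Further falls were those of Homer1, a scaffold protein (−0.63 ± 0.14, in 2 of 4 probes), and S100a1, a calcium sensor that binds the release channel (−0.50 ± 0.12). Leaving out p21 replicate 4, or any 1 of control replicates 1 to 3, ended the call of Homer1. Leaving out p21 replicate 4, or any 1 of the 4 controls, ended that of S100a1. Calm3, 1 of the calmodulin genes (−0.26 ± 0.07, limma adjusted p = 0.0461), and Hrc, a calcium-binding protein of the store (−0.24 ± 0.07, limma adjusted p = 0.0497), passed only narrowly. The call of Calm3 ended when any 1 of the 8 arrays was left out, and that of Hrc when p21 replicate 2, p21 replicate 4 or any 1 of the 4 controls was. Neither was called with robust eBayes or the replicate block (limma adjusted p = 0.0539 for Calm3 and 0.0648 for Hrc), nor was Hrc with the array floor subtracted. Jsrp1, a triad protein that binds both the voltage sensor and calsequestrin, had a change of −0.41 ± 0.12 (limma adjusted p = 0.0693, and 0.0287 with the replicate block). The brightest probe of Asph, whose products include junctin, had −0.32 ± 0.10 (limma adjusted p = 0.0876), while 1 dim Asph probe was called higher (0.12, limma adjusted p = 0.0342). The falls in this list numbered 1, 0, 2 and 3 without control replicates 1, 2, 3 and 4, 4 without p21 replicate 2 and 0 without p21 replicate 4.

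T-tubule and store-operated entry genes were mostly without a call, which does not show that they were level. Of 9 measured, 0 fell and 1 rose (11.1%), and the median was −0.02. Among the brightest probes of all named genes 4.24% were called higher, and among probes brighter than 70% of the array 9.35%. A single rise in this list is near the latter share. The gene that rose was Ehd4, of endocytic membrane traffic, at 12.44, 12.79, 12.27 and 12.44 in p21 muscles, against 11.74, 11.75, 11.96 and 12.02 in control muscles. Its change was 0.62 ± 0.12 (limma adjusted p = 0.0159), a call that needed control replicates 1 and 2 and p21 replicate 4. Cav3, the caveolin of muscle, changed by 0.01 ± 0.08, and Stim1, the calcium sensor of the store, by −0.16 ± 0.11.

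Paralogs of the members were measured for 16 of 19 listed genes, and 13 of the 16 were dimmer than the median probe. Of these 16, 1 rose (6.25%) and 0 fell in limma. That is near the 4.24% higher and 4.79% lower among the brightest probes of all named genes. Stac2, a relative of Stac3, read 8.64, 8.70, 8.47 and 8.56 in p21 muscles, against 8.30, 8.34, 8.31 and 8.37 in control muscles. All p21 values lay above all control values, close to the array floor. Stac2 rose by 0.26 ± 0.05 (limma adjusted p = 0.0151, lost without p21 replicate 4), while Stac3 fell. Cacng6, a relative of Cacng1 found in muscle, had a change of −0.22 ± 0.07 (limma adjusted p = 0.0625, and 0.0185 with the replicate block), opposite in sign to that of Cacng1. Ryr3, the release channel of immature muscle, read 8.33 ± 0.04 in p21 muscles and 8.27 ± 0.01 in control muscles (SD, n = 4 each), near the floor, with a limma adjusted p of 0.131.

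**Figure D5:**
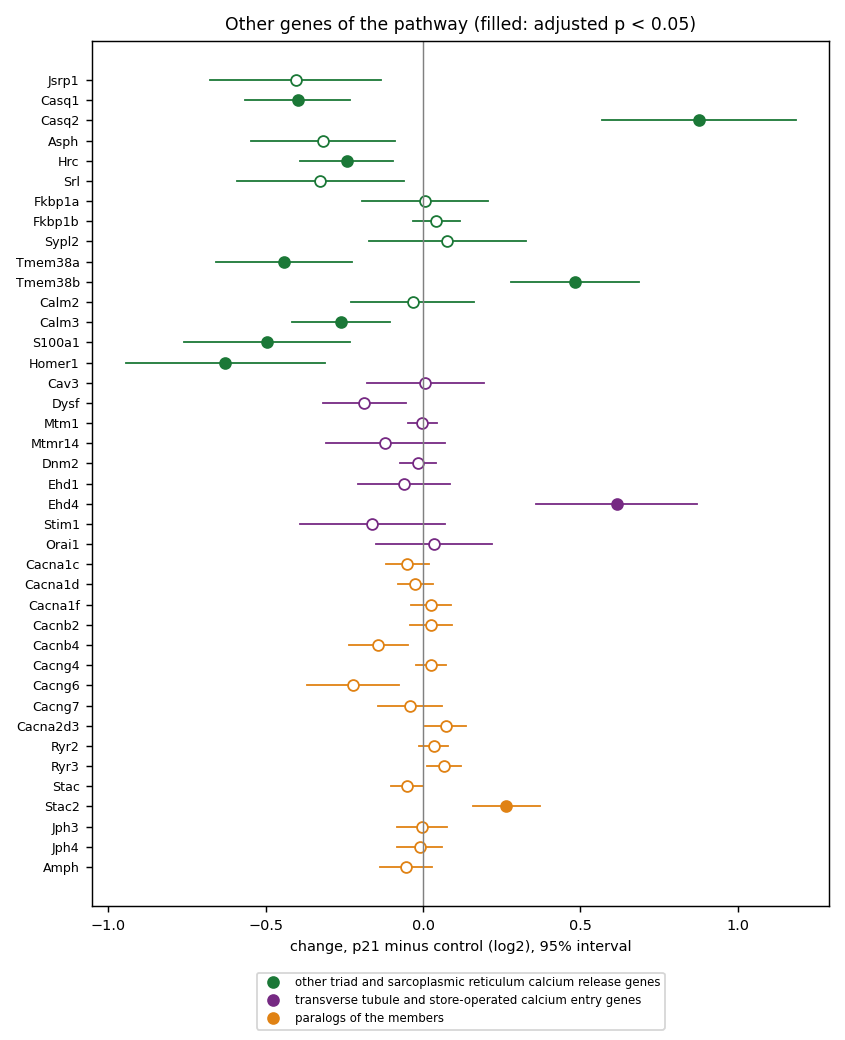
Change of other genes of the pathway, brightest probe each, p21 mean less control mean in log2 units with its 95% interval. Colours give the list and filled points are called by limma; Casq1 and Tmem38a lie left of 0, and Casq2, Tmem38b, Ehd4 and Stac2 lie right of it.

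Genes of fiber structure and of other cell types were set beside these results. Across the array, 4.79% of the brightest probes of named genes were called lower and 4.24% higher. In the class brighter than 70% of probes these shares were 12.5% and 9.35%. Counted by at least 1 probe, 5.33% of named genes were lower and 4.52% higher. Of the 18 structural genes of the fiber, 3 fell through at least 1 probe and 0 rose. They were Ldb3 (−0.58 ± 0.10), Myh4 (−0.44 ± 0.11) and Actn3, whose dimmest probe fell by 0.53 ± 0.11 (limma adjusted p = 0.0206) while its brightest had −0.14 ± 0.05. These falls were as large as those of the triad genes. By brightest probe, 2 fell (11.1%, near the share of the bright class) and the median was −0.08. However, 7 of these 18 probes averaged within 0.5 of the array maximum of 15.27, and Mylpf read 15.27 in all 8 arrays. Probes so close to the maximum may not register a change, so this median does not show that the list was level. By brightest probe, only 1 fell without control replicate 1, 2 or 3, and 0 fell without p21 replicate 4. Of 15 macrophage markers, 8 rose (53.3%) and 0 fell by brightest probe, and 9 rose by at least 1 probe. Their median was 0.84, with list averages of 10.67 to 11.26 in p21 muscles, against 9.73 to 10.28 in control muscles. The macrophage rises numbered 5 without control replicate 1 or 2 and 4 without p21 replicate 4, and 5 with robust eBayes. Itgam and Msr1 of that list were dimmer than the median probe.

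Endothelial markers, by contrast, had 3 falls among 9 and a median of −0.33, with averages of 9.88 to 10.05 in p21 muscles, against 10.09 to 10.31 in control muscles. Fibroblast markers had 1 rise among 8 (averages 11.08 to 11.68 in p21 muscles and 10.69 to 11.24 in control muscles). Smooth muscle and pericyte markers had 1 rise and 2 falls among 8 (10.38 to 10.43 in p21 muscles and 10.36 to 10.43 in control muscles), and satellite cell markers 1 rise among 5 (8.97 to 9.02 in p21 muscles and 8.79 to 8.93 in control muscles). Nerve and Schwann cell markers had 0 calls among 5 (8.90 to 9.26 in p21 muscles and 9.20 to 9.35 in control muscles). The satellite cell rise was that of Vcam1. The shares called were 33.3% lower for endothelial, 12.5% higher for fibroblast and 20% higher for satellite cell markers. For smooth muscle and pericyte markers they were 25% lower and 12.5% higher. A rise of 1 gene in so short a list says little beside the array shares given above. Dimmer than the median probe were Pax7, Myf5 and Chrdl2 (satellite cell), S100b, Nefl and Nefm (nerve and Schwann cell), Kdr (endothelial) and Postn (fibroblast). Probes so dim may not register a change, so their lack of calls says little. With the replicate block, the endothelial falls numbered 6, the fibroblast rises 3 and the nerve and Schwann cell falls 2. Endothelial falls numbered 0 without control replicate 1, 2 or 4 or p21 replicate 1 or 4, and the fibroblast rise was lost without control replicate 1, 2, 3 or p21 replicate 4. Without p21 replicate 4, smooth muscle and pericyte markers had 0 calls in either direction and satellite cell markers 0 rises. The part of these other cells in the triad results was not tested.

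Among 12078 named probes brighter than the median probe and outside the members, those most like the members' scaled mean over the 8 arrays were Metap1, Akt1s1, Letm1, Mapkap1 and Mcrip2, with Pearson correlations of 0.98 to 0.99. Of these 5, Mcrip2 fell (−0.55, limma adjusted p = 0.0284). When each value is taken as its deviation from the group mean, the closest were Acin1, Metap1, Ube2n, Dtna and Mcrip2, at 0.97 to 0.99. Ube2n, among these, also fell (−0.37, limma adjusted p = 0.0231). These are the highest of many correlations over few arrays and are given as a description.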

How the data were processed

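RNA of 8 muscles was hybridised to 1-colour Illumina arrays after TRIzol extraction, column purification and biotin labelling, per the labels' protocols. The deposited values are log2 intensities for 25697 probes. The authors' software, background correction and normalization: not given in the sources used here. After sorting, no value differed between arrays by more than 0.00073, as quantile normalization leaves them, so a difference in total signal between arrays cannot be seen. Probe names came from the platform annotation, with 1 symbol for 23978 probes, several for 0 and none for 1719. A gene with several probes was read by its brightest over the 8 arrays, and every member probe is reported.

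The comparison used limma 3.58.1 under R 4.3.3 (lmFit and eBayes with an intensity trend, two-sided, all probes, no filter). Intervals are 95%. The 10 members and 4 gene lists, 6 marker lists, and the tests were chosen with earlier results of these data known. Named genes were all members, relatives of members, the 5 closest in pattern, and selected genes of the gene lists, some of them without a call. Changes of single cell type markers are not given. Both groups are numbered 1 to 4, and deviations from group means of same-numbered arrays correlated at 0.483, 0.264, 0.212 and 0.181 across probes. All exceed the minimum of 0.1 set for treating numbers as pairs, but control 3 with p21 4 (0.448) and control 4 with p21 2 (0.297) correlated more than the same-numbered pairs 3 and 4. The labels state no pairing, so the fit without the block was kept as the main one. The fit was tested on simulated data, with changes set in probes brighter than the median probe. It recovered 78% of 100 changes of 0.5 and 94% of 100 changes of 1, with 10 false among 182 calls. Changes below 0.5, the size of those called in the members, were not simulated. Alternatives were the replicate block, normalization, dim probes, variance prior, array weights, an offset of 16 after floor subtraction, other thresholds, probe averaging and leaving out each array. Counts for the gene lists under them were added after seeing the data.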

Additional observations from a re-analysis of the deposited data

Results flagged for a closer look

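Of 32 sets of 4 muscles, 1 per group for each member probe, 2 held a muscle whose gap to the nearest other, as a share of the range, exceeded Dixon's 95% limit for 4 values. Chance alone gives about 1 in 20 such sets. In the dimmest Ryr1 probe, p21 replicate 1 read 10.30, above the other p21 muscles and within the control range. In the Trdn probe, p21 replicate 3 read 8.33, near the array floor. Both are probes without a call.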

How the results depend on the processing

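The median change of the members (−0.30) was negative under all 19 alternatives, from −0.46 with the floor subtracted to −0.20 with the mean of a gene's probes. Other thresholds, the variance prior and the replicate block cannot alter this median. Median centring and repeated quantile normalization left it at −0.30, since the arrays already shared 1 distribution. These settings are therefore no test of its sign, nor of the direction of a probe. The calls depended on the setting. Lower members numbered 3 from all arrays, 6 with the replicate block, 5 over probes brighter than the median probe, 1 with the mean of a gene's probes, 0 at adjusted p 0.01, 6 at 0.1, and 0 to 4 with an array left out. Higher members numbered 0, against 1 (Cacng1) with the replicate block, over brighter probes, with robust eBayes and at adjusted p 0.1, and 0 to 1 with an array left out. Probes called in the whole table were 2064, against 3186 with the replicate block, 133 at adjusted p 0.01, 3490 at 0.1, and 159 to 2162 with an array left out. Over the 16 member probes, 242 values kept direction and side of the threshold, 34 lost a call, 16 gained one and 3 turned sign, all of dim probes without a call: the dimmer Cacnb1 probe (−0.0051 without p21 replicate 1, up to 0.034 without control replicate 2) and Trdn (−0.0013 without control replicate 3 and −0.0034 without p21 replicate 3, up to 0.025 without control replicate 1). The cause was not tested, except that the stricter threshold calls less by construction. The replicate block changed no other member call. Low signal limits Trdn, Jph2 and most paralogs.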
